A study of Homo sapiens with 6 samples.

Results

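The 9 genes described here encode part of the terminal complement pathway (C6, C8A, C8B, C8G and C9) and 4 complement regulators (CFI, C4BPA, C4BPB and CD55). They were taken by symbol from the deposited table and are 9 of the 26184 genes and loci listed there. The question was how their transcripts differed between Huh7 P, the parental line of human hepatocellular carcinoma cells, and Huh7 LR, a line made resistant to lenvatinib, a multikinase inhibitor. Huh7 LR was raised from Huh7 P under lenvatinib that started at 1 μM and was increased until, after about 10 months, the cells were kept in 20 μM. Each line was sampled 3 times for poly(A) RNA-seq, Huh7 P was not exposed to the drug, and whether lenvatinib was present when the RNA was collected is not stated. Huh7 LR is a single selected line, so a difference between the lines cannot be told apart from the history of that line. The study's methods call the 3 samples of a line independent, neither they nor the labels say what separated them, and the p-values measure the spread between these samples, which may be technical.

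Complement is a cascade of plasma proteins that are made largely by hepatocytes. Activation cleaves C3 and C5, after which C5b gathers C6, C7, C8 and a ring of C9 into the membrane attack complex, which perforates target membranes. Regulators act at each level: factor I (CFI) cuts C3b and C4b, C4b-binding protein (an assembly of C4BPA and C4BPB chains) is its cofactor for C4b, and CD55, or decay-accelerating factor, dissociates the convertases on the cell surface.

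Counts on genes totalled 62738937 to 71427573 per Huh7 P library and 63233655 to 70768720 per Huh7 LR library, and the scaling factors lay between 0.977 and 1.03. All 8 hepatocyte markers examined were expressed, with a summed level of 43500 to 52590 CPM (counts scaled to library size) in Huh7 P and 54990 to 58030 in Huh7 LR, and 4 of them were higher in Huh7 LR. Of the leukocyte and Kupffer markers, TYROBP and HLA-DRA were at 0 in every library, as were CDH5 of the endothelial and DCN of the stellate and fibroblast markers. The summed leukocyte and Kupffer markers lay at 67.0 to 74.3 CPM in Huh7 P and 46.8 to 53.2 in Huh7 LR, the endothelial markers at 39.1 to 47.7 and 65.3 to 71.4 CPM, the stellate and fibroblast markers at 2.16 to 2.28 and 5.02 to 8.02 CPM, and the cholangiocyte markers at 45.6 to 53.0 and 10.4 to 14.0 CPM. With an adjusted p under 0.05 (edgeR), 1 of 2 tested leukocyte and Kupffer markers and the 1 tested cholangiocyte marker were lower in Huh7 LR. Of the tested endothelial markers 2 of 3 were higher, as were 2 of 2 tested stellate and fibroblast markers. Over all genes tested, 23.3% were higher and 22.4% lower at this level. The part of these markers in the differences below was not tested, and in bulk RNA fewer cells with a transcript and less transcript per cell cannot be told apart.

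Most of the set was higher in Huh7 LR. Of the 9 genes, 8 had enough counts to be tested with edgeR's quasi-likelihood test. A call required both an adjusted p under 0.001 and a change past 2-fold. Of the 8 genes, 6 were called higher (C6, C8B, CFI, C4BPA, C4BPB and CD55), against 4.43% of all 17531 genes and loci tested. None was called lower, against 1.78%. Here and below, all genes tested include loci without an annotated gene. Among 14053 annotated genes fitted alone, 660 were called higher and 245 lower. C8A also rose but by less than 2-fold, so that 7 genes were higher at an adjusted p under 0.05 (background 23.3%) and 0 lower (background 22.4%), and C8G was the 1 tested gene that did not differ. In these 7 genes the lowest Huh7 LR value exceeded the highest Huh7 P value, which held for 28.2% of all genes tested, and 27.7% had the lines apart in the other direction. The median log2 fold change of the 8 genes was 1.25, whereas that of all genes tested was 0.00.

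**Figure D1:**
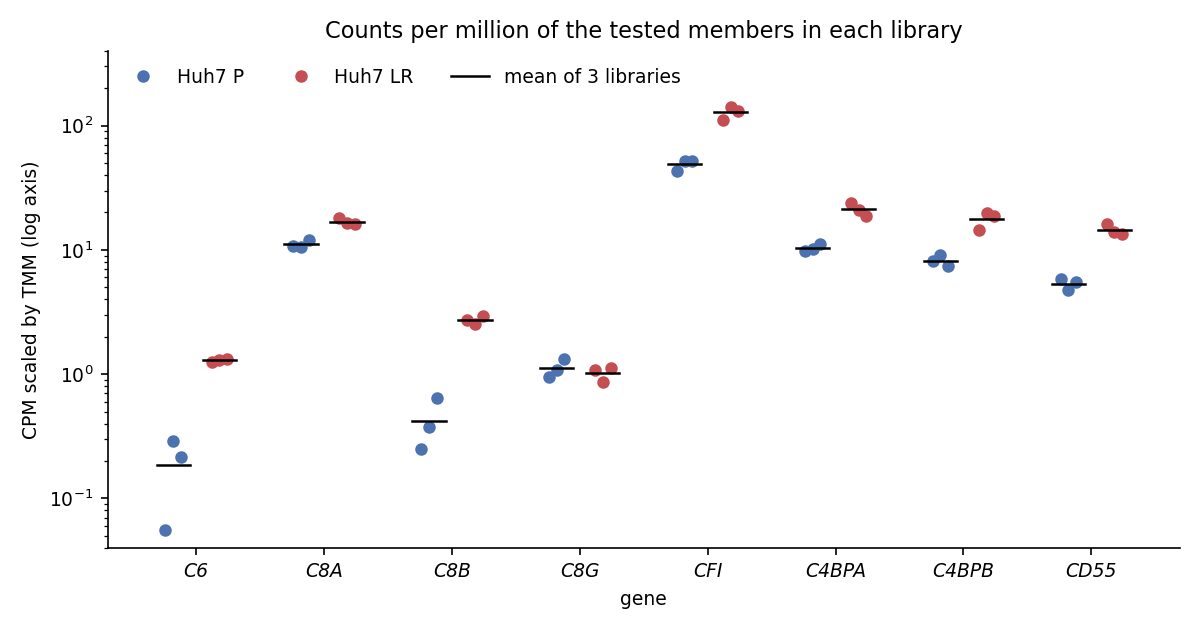
Level of the 8 tested genes in each of the 6 libraries, in CPM scaled by TMM on a log axis, with 1 point a library and a bar at the mean of the 3 libraries of a line. The lines do not overlap for 7 genes and do overlap for C8G.

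Among the terminal components, C6 and C8B showed the greatest change of the set, and both started from very few reads. C6, the first protein to join C5b, was counted 4, 18 and 14 times in Huh7 P replicates 1 to 3, compared with 82, 91 and 90 times in those of Huh7 LR (all counts below keep this order). The Huh7 P libraries were low and scattered, the lowest of them close to the limit of 3 counts that a count of 0 allows, while the Huh7 LR libraries lay close together far above them. Scaled to library size this was 0.187 ± 0.120 CPM in Huh7 P and 1.29 ± 0.0312 CPM in Huh7 LR (SD, n = 3), giving a log2 fold change of 2.80 ± 0.43 (SE, edgeR's quasi-likelihood adjusted p = 3.47e-04). Without Huh7 P replicate 3, Huh7 LR replicate 2 or Huh7 LR replicate 3 the adjusted p of C6 rose to 0.0025, 0.00138 and 0.00213, past the level used for calls, with log2 fold changes of 2.92, 2.80 and 2.78.

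C8, which enters the complex after C7, is built from 3 chains encoded by C8A, C8B and C8G. The 3 transcripts moved by different amounts. C8B, the beta chain, was counted 18, 23 and 42 times in the parental line, compared with 179, 177 and 199 times in the resistant line. Even the highest Huh7 P library stayed far below all Huh7 LR libraries, and the log2 fold change was 2.69 ± 0.30 (SE), or 6.47-fold (edgeR adjusted p = 3.76e-05). C8A, the alpha chain, had 777, 648 and 788 counts in the parental line and 1181, 1152 and 1098 in the resistant line. Its groups did not overlap, and it rose by a log2 fold change of 0.60 ± 0.10, which is 1.52-fold (edgeR adjusted p = 5.46e-04). C8G, the gamma chain, which is a lipocalin linked to the alpha chain by a disulphide bond, had 68, 66 and 86 counts in the parental line and 71, 60 and 77 in the resistant line. The lines overlapped for C8G, and its log2 fold change was -0.12 with a 95% interval of -0.65 to 0.41 (edgeR adjusted p = 0.728), which leaves room for changes of the size seen in C8A in the downward direction but not in the upward one.

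C9, the pore-forming subunit, was barely detected. Its counts were 0, 3 and 0 in the parental line and 0, 3 and 6 in the resistant line, so that a single library exceeded 3 counts and no difference was detectable at this depth. A count of 0 allows a level of up to 0.042 to 0.0478 CPM in these libraries (counting error only, library totals without TMM scaling). C9 also shares 119 exon bases on the same strand with DAB2, which was listed at 134 to 170 CPM, and reads from that stretch could belong to either gene.

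All 4 regulators were called higher. CFI, the serine protease of the set, had 3070, 3183 and 3417 counts in the parental line and 7273, 9961 and 8960 in the resistant line. The lowest Huh7 LR library was more than 2-fold above the highest Huh7 P library, and with 48.9 ± 5.29 against 128 ± 15.5 CPM (SD, n = 3) the log2 fold change was 1.39 ± 0.11 (SE, edgeR adjusted p = 2.84e-06). CD55, which is anchored in the membrane of the cell that makes it, had 415, 292 and 361 counts in the parental line and 1050, 974 and 919 in the resistant line. The lines were again well apart, at 5.35 ± 0.547 and 14.5 ± 1.42 CPM, and CD55 rose by a log2 fold change of 1.44 ± 0.12 (edgeR adjusted p = 6.29e-06).

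The chains of C4b-binding protein rose to a similar extent. C4BPA, the chain that binds C4b, had 705, 631 and 726 counts in the parental line and 1542, 1471 and 1284 in the resistant line. C4BPB, the chain that binds the anticoagulant protein S, had 581, 560 and 487 counts in the parental line and 945, 1394 and 1270 in the resistant line. In both genes each Huh7 LR library exceeded each Huh7 P library, with the Huh7 LR libraries spreading more for C4BPB, where replicate 1 was the lowest. The log2 fold changes were 1.03 ± 0.11 for C4BPA (edgeR adjusted p = 2.46e-05) and 1.11 ± 0.13 for C4BPB (edgeR adjusted p = 6.54e-05). C4BPA sat close to the fold threshold and fell under it without Huh7 P replicate 1 (0.99) or Huh7 LR replicate 1 (0.94).

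Levels of different genes can be set side by side only per transcript length, and for this the deposited FPKM values were used. CFI was the most abundant transcript of the set, with 23.6 ± 2.46 FPKM in Huh7 P and 61.4 ± 5.33 in Huh7 LR (SD, n = 3), which was above 85.5% of all annotated genes in Huh7 P and above 95.2% in Huh7 LR. C4BPB followed at 7.72 FPKM in Huh7 P and 17.1 in Huh7 LR. C4BPA and C8A did not differ beyond their spread in Huh7 P, at 4.38 and 4.33 FPKM, while in Huh7 LR the libraries of C4BPA (8.09 to 10.4 FPKM) lay above those of C8A (6.38 to 7.26 FPKM). CD55 came next at 1.91 and 5.41 FPKM. At the lower end the order itself changed: in Huh7 P, C8G with 1.18 FPKM lay above C8B with 0.159 FPKM, and in Huh7 LR, C8B with 1.24 FPKM and C8G with 1.17 FPKM overlapped. C6 at 0.0455 and 0.351 FPKM, and then C9, were the lowest in both lines.

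**Figure D2:**
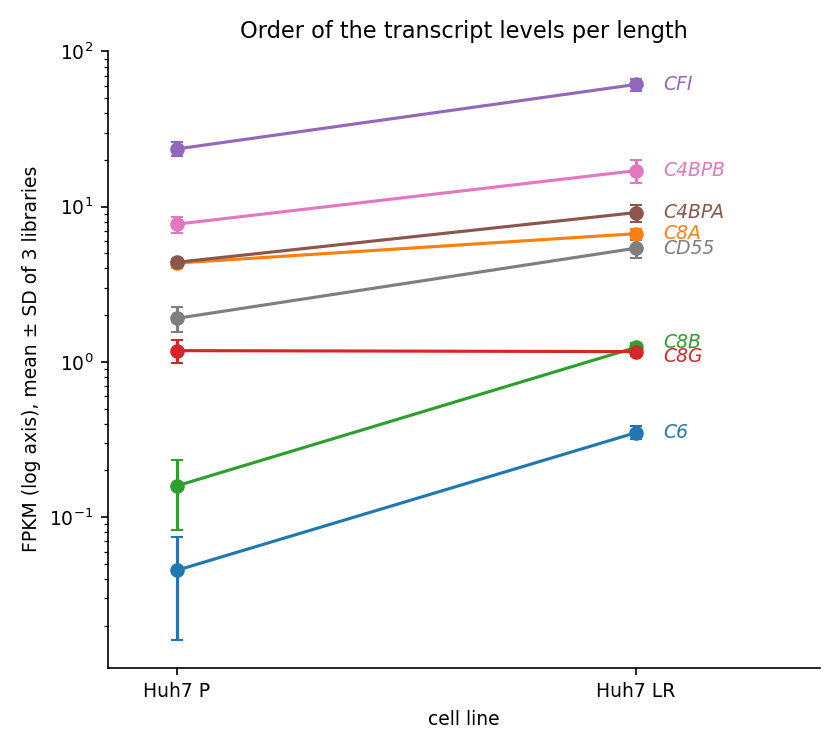
Mean FPKM of the 8 tested genes in Huh7 P and Huh7 LR on a log axis, with bars of 1 SD over 3 libraries and a line joining the values of each gene. C8B starts below C8G and reaches its level in Huh7 LR, and CFI stays on top.

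The balance between chains of 1 protein was compared as ratios of FPKM within each library, for 3 ratios. The C8A to C8B ratio was 46.0, 28.6 and 19.3 in the parental line and 5.76, 5.64 and 4.84 in the resistant line. Huh7 P libraries were all higher and differed from each other by more than 2-fold, with only 18 to 42 reads of C8B there, whereas the Huh7 LR libraries were close together. The geometric mean ratio was 5.44-fold lower in Huh7 LR (two-sided exact permutation test p = 0.1, the smallest p that 3 samples against 3 allow, 0.15 adjusted over the 3 ratios). As a log2 difference this was -2.44, compared with -1.79 when 0.1 was added to each FPKM value and -2.20 on counts not divided by length. The C8G to C8A ratio was 0.242, 0.272 and 0.302 in the parental line and 0.166, 0.167 and 0.190 in the resistant line. It was thus lower in every Huh7 LR library, by 1.56-fold (exact permutation test p = 0.1, adjusted 0.15). The C4BPB to C4BPA ratio was 1.83, 2.01 and 1.47 in the parental line and 1.34, 2.12 and 2.25 in the resistant line, and the lines overlapped (log2 difference 0.08, exact permutation test p = 0.7, adjusted 0.7). The direction of this last difference turned when Huh7 P replicate 3, Huh7 LR replicate 2 or Huh7 LR replicate 3 was left out (-0.046, -0.018 and -0.0588).

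**Figure D3:**
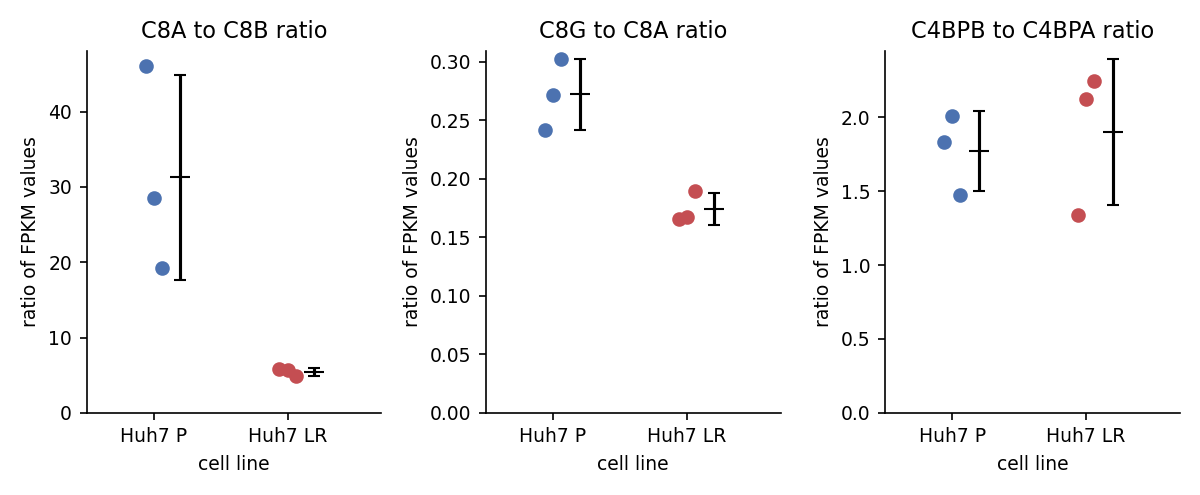
Ratios of FPKM values within each library (points, 3 a line) for the chains of C8 and of C4b-binding protein, with the mean and SD beside the points and axes that start at 0. Both C8 ratios separate the lines, and the C4BPB to C4BPA ratio does not.

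In the genome the set falls into a few groups (positions from GENCODE release 29 on GRCh38). C8A at chr1:56854806-56918221 and C8B at chr1:56929210-56966140 lie end to end on opposite strands with 10988 bases between them. C4BPB at chr1:207088842-207099993 and C4BPA at chr1:207104262-207144972 share a strand and are separated by 4268 bases, and CD55 at chr1:207321376-207386804 follows 176403 bases further on. C6 at chr5:41142234-41261438 lies 159294 bases from C7, C9 is at chr5:39284262-39424868, CFI at chr4:109740694-109802179 and C8G at chr9:136945185-136946975. The exons of CFI share 1562 bases with AC126283.2 on the same strand, a gene with 0 counts in every library. No other gene of the set, apart from C9, shares exon bases with a listed gene, although whether counting used strand is not given in the sources used here.

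The bases just before the starts given by RefSeq are shown for C8A and for C4BPB and C4BPA, the neighbours whose transcripts were compared above, and a shorter stretch for C8B and C6, the genes with the largest fold changes. Sequences are those of RefSeq on GRCh38.p14, written 5′ to 3′ on the strand of the gene, with matches to the motifs searched in capitals. The RefSeq start of C8B lies 125 bases inside the GENCODE gene, so that its stretch also lies inside that gene, and the C4BPB sequence was ended where its GENCODE gene begins. They lie at chr1:56854547-56854796 for C8A, chr1:207088610-207088841 for C4BPB and chr1:207103983-207104232 for C4BPA, and from 58 to 29 bases before the RefSeq start of C8B and from 170 to 141 bases before the first RefSeq start of C6.
C8A: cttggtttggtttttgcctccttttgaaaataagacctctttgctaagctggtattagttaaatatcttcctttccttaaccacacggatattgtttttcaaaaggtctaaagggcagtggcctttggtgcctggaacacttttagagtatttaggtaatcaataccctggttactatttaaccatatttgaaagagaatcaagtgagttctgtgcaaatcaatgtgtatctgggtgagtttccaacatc
C8B: tagtggctttcTGTTTACtttgcagagcta
C4BPB: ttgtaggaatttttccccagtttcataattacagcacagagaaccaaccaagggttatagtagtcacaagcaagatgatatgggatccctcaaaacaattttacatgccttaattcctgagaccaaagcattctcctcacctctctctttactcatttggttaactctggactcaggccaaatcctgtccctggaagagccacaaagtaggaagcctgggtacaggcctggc
C4BPA: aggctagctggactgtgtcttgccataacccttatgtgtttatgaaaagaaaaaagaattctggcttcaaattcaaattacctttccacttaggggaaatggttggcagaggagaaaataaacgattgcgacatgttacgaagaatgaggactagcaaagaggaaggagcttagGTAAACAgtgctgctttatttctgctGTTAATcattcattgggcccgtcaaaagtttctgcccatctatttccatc
C6: attggaatagtTTTTGCAAtgtttaatttg

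Motifs of 6 families of factors that act in hepatocytes or in the acute phase were searched on both strands in the 250 bases before each RefSeq start, which can lie inside the GENCODE gene, and 8 of the 9 genes had an entry. The motifs were GTTAAT, the core of the HNF1 site (found before 6.23% of all 35116 promoters in the table), CAAAGTNCA for HNF4 (0.94%), TGTTTAC for FOXA (2.98%), TTGCNNAA for C/EBP (9.05%), TTCNNNGAA for STAT (6.57%) and TGANTCA for AP-1 (6.57%). C8B held a FOXA match 47 bases before its RefSeq start, inside the GENCODE gene, and C4BPA held a FOXA match 76 bases and an HNF1 match 50 bases before its start. C6 held a C/EBP match 159 bases before its first start, with an HNF4 match 52 bases and a C/EBP match 220 bases before its second start, and CFI an HNF1 match 248 bases before its start. The first start of C4BPB held none. Its later starts shared the same FOXA match, and the last of them also held 1 STAT match. C8A, CD55 and C9 held no match to these letters in this window. A match describes the sequence and was not tested as a binding site.

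The genes around the set were examined to see whether whole neighbourhoods had moved. Of 78 tested annotated genes within 500 kb of a member, 11 were called higher and 2 lower by edgeR's test (background 4.43% and 1.78%), with a median log2 fold change of 0.20. None of the 5 tested neighbours of C8A and C8B was called. Near C4BPB, C4BPA and CD55, 3 of 10 were called higher: RASSF5 (log2 fold change 1.12), PIGR, the polymeric immunoglobulin receptor (1.74), and C1orf116 (1.67). Of the 7 tested neighbours of C6, C7 was higher and OXCT1, an enzyme of ketone body use, was lower (-3.42). The gene-dense region of C8G, which itself did not differ, held 46 tested neighbours, of which LCN10, CCDC183, CYSRT1, RNF224, SLC34A3, EXD3 and NOXA1 were called higher and NOTCH1 lower (-1.71). None of the 7 near CFI and none of the 3 near C9 was called.

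**Figure D4:**
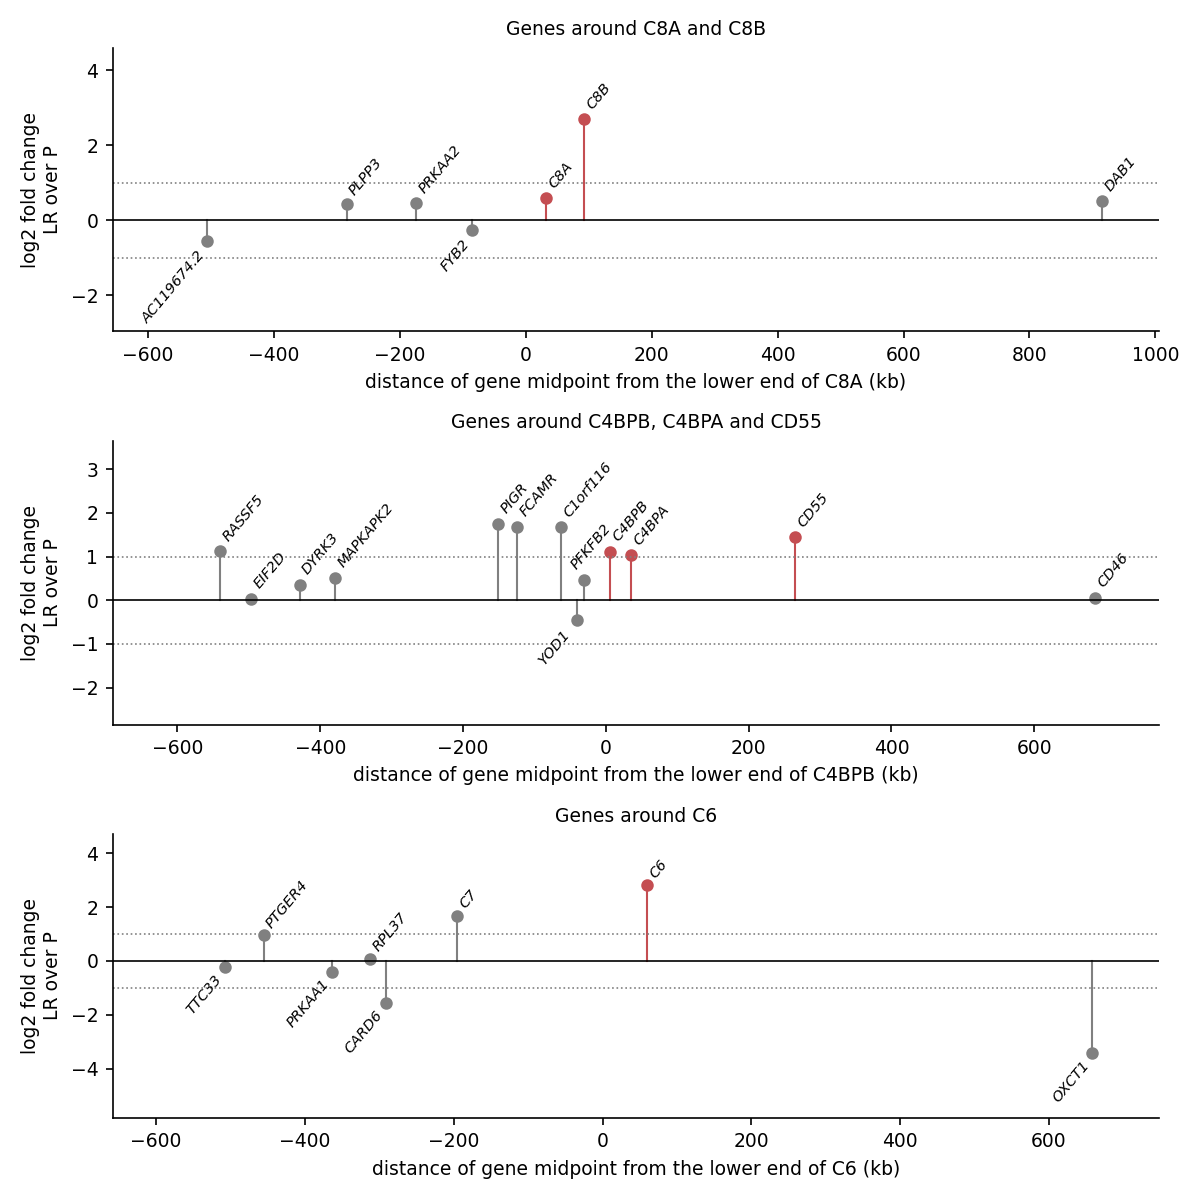
Log2 fold change of Huh7 LR over Huh7 P for tested genes within 500 kb of the genes of the set, placed by the distance of the gene midpoint from the lower end of the first gene named, so that a long gene can plot farther away. Genes of the set are red, neighbours grey, and the dotted lines mark a 2-fold change. C8B stands above its neighbours, while PIGR and C1orf116 rise beside C4BPB and C4BPA.

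The remaining complement genes were taken from lists by role. C5 and C7 complete the attack complex together with the genes above. C5 had 6524, 5447 and 6575 counts in the parental line and 8826, 7267 and 9730 in the resistant line, and rose by a log2 fold change of 0.45 (edgeR adjusted p = 0.00662). C7 had 77, 49 and 47 counts in the parental line and 151, 240 and 174 in the resistant line, and rose by 1.68 (edgeR adjusted p = 1.75e-04), a call that was lost without Huh7 P replicate 2 or replicate 3 (adjusted p = 0.0013 and 0.00164). The lines did not overlap for either gene, so C5, C6, C7, C8A and C8B were all higher in Huh7 LR, and C8G and C9 were the components of the complex without a measured difference.

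Of 22 other regulators, 12 could be tested, and 4 were called higher and 1 lower (background 4.43% and 1.78%). At an adjusted p under 0.05, 7 were higher and 1 lower (background 23.3% and 22.4%), and the median log2 fold change was 0.36. CD59, the membrane protein that keeps C9 from inserting, rose by a log2 fold change of 1.19, and VTN, a plasma inhibitor of the same step, rose by 1.16. SUSD4, a membrane inhibitor, rose by 2.95, and CPN2, a subunit of the carboxypeptidase that inactivates anaphylatoxins, by 1.15. CD46, the third common membrane regulator and a cofactor of factor I, had a log2 fold change of 0.06 with a 95% interval of -0.16 to 0.29 (edgeR adjusted p = 0.651).

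Of 20 activation components, 12 could be tested, and 4 were called higher and 0 lower (background 4.43% and 1.78%). Their median log2 fold change was 0.83. When the adjusted p alone had to be under 0.05, 7 lay higher and 1 lower (background 23.3% and 22.4%). At that level C2 was lost without Huh7 P replicate 1, Huh7 P replicate 3 or Huh7 LR replicate 3 (adjusted p of up to 0.064), and CFD, the lower one, without Huh7 P replicates 1 or 3 or Huh7 LR replicates 1 or 3 (up to 0.114). The called genes were C1R and C1S, the proteases of the classical pathway (1.34 and 2.16), MASP1, a protease of the lectin pathway (1.30), and MBL2, which encodes mannose-binding lectin (2.11). C3, the substrate of factor I once activated, had 368.8 ± 4.57 CPM in Huh7 P and 694.9 ± 56.3 CPM in Huh7 LR (SD, n = 3), and its log2 fold change of 0.91 fell short of 2-fold (edgeR adjusted p = 5.04e-06). Of 8 complement receptors, 3 could be tested, with a median of -0.57 over the 3. Of these, 0 were called higher (background 4.43%) and ITGAM, a subunit of complement receptor 3, was called lower (-1.81, background 1.78%). Of 14 factors and signalling genes of hepatic complement transcription, all 14 were tested, with a median of 0.34. Of these, 1 was called higher (IRF1, 1.38) and 0 lower (background 4.43% and 1.78%). With an adjusted p under 0.05, 8 lay higher and 0 lower (background 23.3% and 22.4%). Among these 8, SOCS3 lost the adjusted p under 0.05 when any library other than Huh7 LR replicate 1 was left out.

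**Figure D5:**
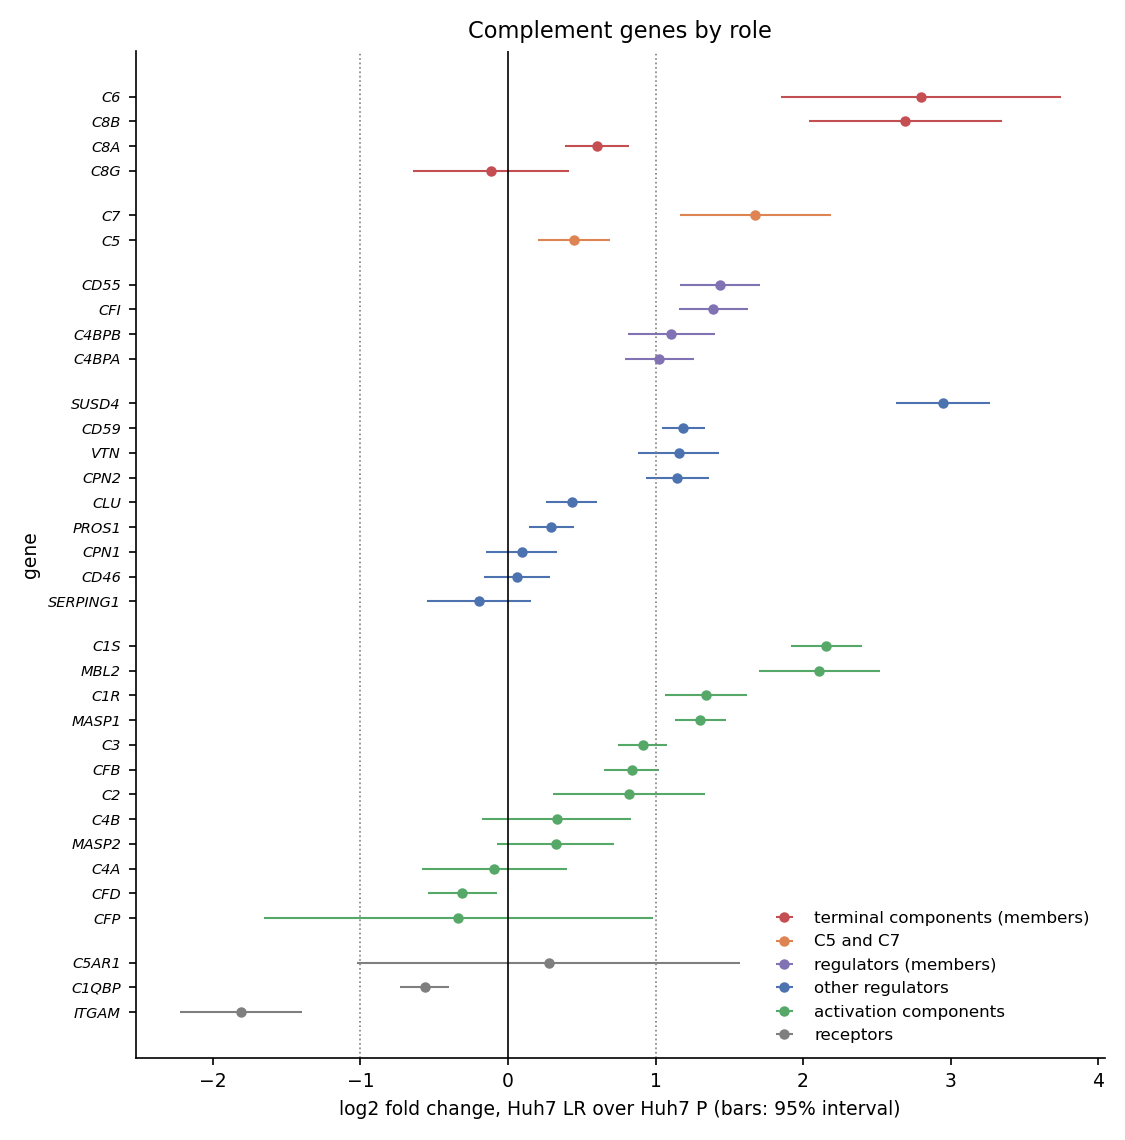
Log2 fold change of Huh7 LR over Huh7 P (points) with its 95% interval (bars) for tested complement genes, grouped by role, with dotted lines at a 2-fold change in either direction. Most terminal components and regulators lie to the right of 0, and ITGAM, a receptor subunit, lies to the left.

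The pattern over the 6 libraries was compared with that of all other annotated genes tested, taking CFI, the gene of the set with the smallest adjusted p, as the reference. The distance was the Euclidean distance between log2 CPM values centred on each gene's own mean, with no offset, over 6 libraries and the 13817 other genes counted in every library, and these libraries share the same contrast that separates the lines. The nearest genes were HPX (distance 0.14), which encodes the haem carrier haemopexin, SP110 (0.18), C1orf115 (0.19), PDZK1 (0.20) and MAGED2 (0.21). HPX was at 15.2 CPM in Huh7 P and 42.6 CPM in Huh7 LR. Among the other genes of the set, C4BPB was the closest to CFI at rank 126, followed by CD55 at rank 277 and C4BPA at rank 350, and C8A stood at rank 1324. C8B (rank 8149, distance 1.92) lay as far from CFI as C8G (rank 8177, distance 1.92), and C6, with few Huh7 P counts, lay farther still at rank 12792 (distance 2.62).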

How the data were processed

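Poly(A) RNA of 3 Huh7 P and 3 Huh7 LR samples was sequenced. The authors deposited 1 table with raw read counts per gene and library, which were not normalised, and FPKM values, which the authors scaled for transcript length and library size. The submitters' processing notes name TopHat2, Cufflinks, DESeq and mm10, a mouse build, although the identifiers are those of human genes. The extraction text in the labels describes another organism, and the aligner's annotation and any use of strand are not given in the sources used here. Of 26218 lines, 34 name no gene and were left out.

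The counts of genes passing filterByExpr (minimum count 10, minimum total 15) were scaled by TMM and compared with the quasi-likelihood test of edgeR 4.0.16 (R 4.3.3), with p-values adjusted over all 17531 genes by the Benjamini-Hochberg method. The common coefficient of variation between samples was 12.7%. Calls required an adjusted p under 0.001 together with a log2 fold change past 1 in either direction, and a difference of 1 gene an adjusted p under 0.05. CPM values were scaled by TMM, except the level that a count of 0 allows. Ratios were tested on log2 FPKM by a two-sided exact permutation test. On simulated data with 17468 genes tested, edgeR recovered 93 of 100 changes of 4-fold and 89 of 100 of 2.5-fold for this comparison, with 0 unchanged genes called. The changes were placed only in genes above a minimum mean count, so the recovery does not extend to genes with as few counts as C9.

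The genes of the set and the lists (other terminal genes, other regulators, activation components, receptors, transcription factors and cell type markers) were chosen with earlier results of these data known. Named genes were the set itself, called genes of the lists and neighbourhoods, C5, C7, CD46, CD59 and C3 whatever their values, and the 5 genes most like CFI; some genes of the lists are counted but not reported here by name. DAB2, AC126283.2 and genes whose calls moved with 1 library were named after their values were seen. As alternatives, DESeq2 1.42.0 was run (its Wald test, and its size factors in edgeR), with other filters, a replicate block, robust estimation, limma-trend (limma 3.58.1) with pseudocounts of 0.1 or 1 on the FPKM values of genes that reached 0.5 FPKM in 3 or more libraries, other thresholds, a wider window and each library left out in turn. Annotated genes alone were added after seeing the data.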

Additional observations from a re-analysis of the deposited data

How the results depend on the processing

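Of 239 recomputed values, 232 were classed as unchanged. For single genes this meant the same direction and the same side of an adjusted p of 0.05. For ratios it meant the same direction alone, and for counts staying within 1.5 times the count reported. The stricter threshold for calls was not part of this class. At that threshold C6 was called in 9 of 12 alternative settings, C4BPA in 12 of 15 and C8B in 14 of 15. Calls of single genes that were lost without a library are given with C6, C4BPA and C7 above. The log2 fold change of C8G, which did not pass the test, ranged from -0.222 to 0.0207 with a library left out, and turned positive without Huh7 P replicate 3 (0.0207) or Huh7 LR replicate 2 (0.00631). With limma-trend on log2(FPKM + 1), which compresses low values, 3 genes of the set instead of 6 were called higher (C8B at 0.95 and C4BPA at 0.91 fell short of 2-fold and C6 was not tested), and among the other complement genes 6 instead of 9 were called higher and 1 instead of 2 lower. Calls lost there were those of C1R (0.90), MBL2 (0.94), ITGAM (-0.59) and, from the transcription list, IRF1 (0.90), and C7 lost its call there and with log2(FPKM + 0.1) (adjusted p = 0.00198 and 0.0013, limma-trend). With a library left out, 5 to 6 genes of the set were called higher. The log2 difference of the C4BPB to C4BPA ratio ranged from -0.0588 to 0.316 with a library left out, and turned negative without Huh7 P replicate 3 (-0.046), Huh7 LR replicate 2 (-0.018) or Huh7 LR replicate 3 (-0.0588); the cause was not tested. Same-numbered samples of the lines correlated by 0.0254 to 0.0668 in their deviations, each best with its own number, which was too little to pair them; the fit with a replicate block called 6 genes of the set higher and 0 lower, as without it, and 783 higher and 316 lower over all genes. Past an adjusted p of 0.05, SERPING1, FOXA1 and NR1H4 were added without Huh7 LR replicate 1 and CEBPB and IL6ST without Huh7 LR replicate 2, and CEBPD passed the call with at least 10 counts in every library (1.00) and without Huh7 LR replicate 2 (1.03) or replicate 3 (1.05). Over all genes, limma-trend on log2(FPKM + 1) called 268 higher and 84 lower of 13746 tested, against 776 and 312 of 17531 with edgeR. C6 had fewer than 0.5 FPKM in every library and thus did not enter the limma fits, and depth limited what could be seen of C6 in Huh7 P and of C9 in both lines.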
